A study of Homo sapiens with 2 samples.

Results

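Late-numbered miRNAs, the human names miR-1000 and above, were followed through MS2 pulldowns of UCA1 from MDA231 cells, a line of invasive human breast cancer cells (MDA-MB-231). The members were chosen by their counts in these libraries: a name numbered 1000 or more with a count above 0 in at least 1 of the 2 pulldowns. This rule gave 32 members of the 151 miRNAs listed with counts. UCA1 is a long non-coding RNA. MDA231-UCA1-MS2 cells carried it with MS2 hairpins from a lentiviral vector, and the hairpins let a maltose-binding fusion of the MS2 coat protein (MBP-MCP) on amylose resin hold the RNA during 5 h of incubation, before elution with 20 mM maltose. MDA231-Con cells went through the same pulldown as the control, and the study heads the comparison UCA1-MS2/MS2. The construct of the control cells is not described further in the sources used here, nor is whether either line was 1 clone. Each condition had 1 small RNA library, called the UCA1-MS2 library and the control library, so no difference could be set against a spread between replicates, and no test was made. The libraries do not measure UCA1 itself, so the labels could not be checked against the tagged RNA. In bulk lysates, a lower level in the cells and a weaker capture on the resin cannot be told apart.

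A miRNA is cut from a hairpin precursor, and either arm of the hairpin, named 5p or 3p, can be loaded into an Argonaute protein. Bases 2 to 8 of the mature strand, the seed, pair with target RNAs. miRNA numbers were given in the order of registration. The low numbers thus hold most of the abundant and conserved families, while high numbers came largely from later deep sequencing. Some late names have a sequence that also lies in another small RNA, such as a ribosomal, small nuclear or nucleolar RNA. Others are annotated on the opposite strand of an older miRNA gene.

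The UCA1-MS2 library held 20037 miRNA counts, 0.162% of the authors' library total, and the control library 72579 counts, 0.562%. No count from 1 to 9 was listed in either library. A listed 0 is therefore taken as up to 9 counts, which is 0.0449% of the miRNA counts in the UCA1-MS2 library and 0.0124% in the control library. All 5 miRNAs of an MDA-MB-231 marker list were listed in both pulldowns, at 31.6% and 45.7% of the miRNA counts. Of 3 hepatocyte markers, only miR-122-5p was listed, with 488 counts in the UCA1-MS2 library and 0 in the control library. Epithelial markers summed to 0.564% (2 of 5 listed) and 0.0289% (1 of 5), and erythroid markers to 0.105% and 0.0744%, from miR-486-5p alone of 3. The muscle marker miR-1-3p, 1 of 3, had 10 and 0 counts, and 0 of 4 leukocyte markers were listed in either pulldown. By share, the hepatocyte and epithelial sums were thus higher and the MDA-MB-231 sum lower in the UCA1-MS2 library. The MDA-MB-231 markers did not move together. In the UCA1-MS2 library, miR-100-5p was 6.13-fold lower by share and miR-222-3p 1.84-fold lower. By the same measure miR-21-5p, miR-221-3p and miR-29a-3p were 1.58-fold, 4.18-fold and 3.21-fold higher. The part of all these markers in the results was not tested.

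Mature sequences were available from RefSeq (GRCh38.p14) for 27 of the 32 members; for miR-7641, miR-1273g-3p, miR-3656, miR-3687 and miR-3195 the names alone are given. The following are members with large counts or large differences, in lower case from 5′ to 3′ with the seed in capitals, since the seeds show how little these miRNAs resemble each other.
miR-3135b: gGCUGGAGcgagugcaguggug
miR-4443: uUGGAGGCguggguuuu
miR-4488: aGGGGGCGggcuccggcg
miR-4497: cUCCGGGAcggcugggc
miR-4709-5p: aCAACAGUgacuugcucuccaa
miR-7704: cGGGGUCGgcggcgacgug
miR-1307-3p: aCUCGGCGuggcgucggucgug
miR-7977: uUCCCAGCcaacgcacca
miR-4448: gGCUCCUUggucuaggggua
miR-5701: uUAUUGUCacguucugauu
Several are short and rich in G and C. The 27 members had 27 different seeds, and 0 of these seeds occurred in the 108 listed names below 1000 and let-7 that have a sequence. Among those 108, 15 seeds were shared by 42 names.

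Most late names were not listed in either pulldown. The deposited table held 1648 late names among 2588, or 63.7% of all names, and counts were listed for 32 of them, 1.94% (95% Wilson interval 1.38 to 2.73%). For the 940 names below 1000 and let-7, the number was 119, or 12.7% (10.7 to 14.9%). Of the 32 members, 17 were listed in the UCA1-MS2 library and 31 in the control library. Both pulldowns listed 16 of them, 15 were listed in the control library alone, and 1, miR-3591-3p, in the UCA1-MS2 library alone. Of all 151 listed miRNAs, 90 were listed in both, 49 in the control library alone and 12 in the UCA1-MS2 library alone.

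As a class, late-numbered miRNAs made up a larger share of the miRNA counts in the UCA1-MS2 library. They held 6569 counts there, 32.8% of the miRNA counts (32.1 to 33.4%), against 9432 counts or 13.0% (12.8 to 13.2%) in the control library. The share was thus 2.52-fold higher (2.44 to 2.60), a log2 ratio of 1.34. Names below 1000 and let-7 took the rest, 67.2% against 87.0%. Every interval for a share or a ratio covers counting error alone. No molecular identifiers are described, so reads are not independent molecules, and the intervals leave out any spread between pulldowns.

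Scaled to the authors' library totals, as the deposited RPM values are (counts relative to that total), the class went the other way. Its summed level was 529.5 RPM in the UCA1-MS2 library and 730.5 RPM in the control library, 1.38-fold lower (1.34 to 1.42). The names below 1000 and let-7 summed to 1086 and 4890 RPM, 4.50-fold lower (4.42 to 4.59). Both classes were lower in RPM, and the late-numbered class less so. Changing from shares of the miRNA counts to RPM moved every log2 ratio by -1.80. This is because the miRNA counts were a smaller part of the authors' library total in the UCA1-MS2 library. The library totals were recovered from the counts and RPM, and which reads they hold was not checked. Which of the library sizes is the right one was not tested, so both are given throughout.

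**Figure D1:**
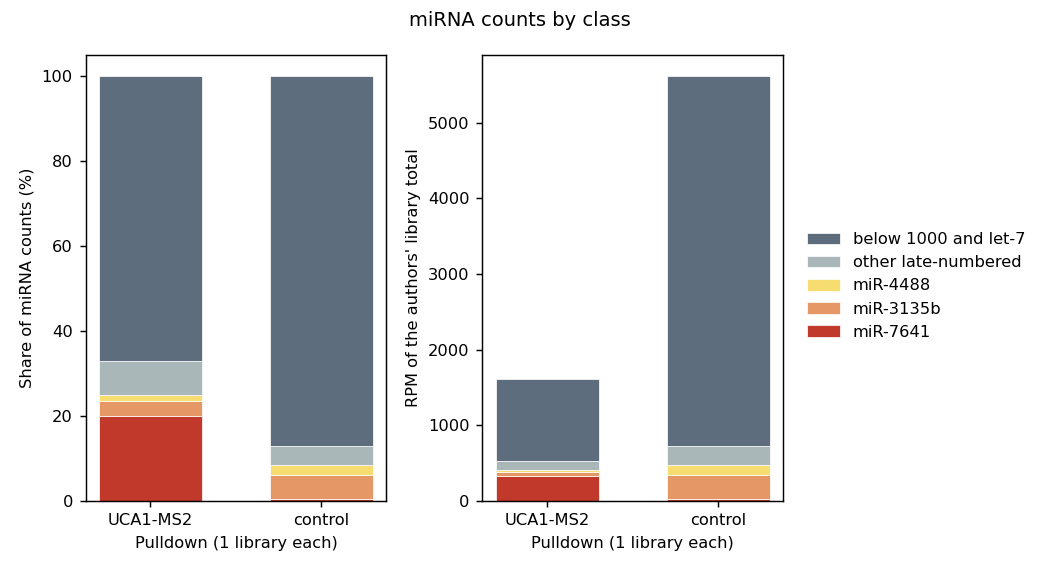
miRNA counts of each pulldown (1 library each) by class, on the left as percent of the miRNA counts and on the right as RPM of the authors' library total; colours mark miR-7641, miR-3135b, miR-4488, the other late-numbered miRNAs and the names below 1000 with let-7. The late-numbered part is 32.8% against 13.0% on the left and 529.5 against 730.5 RPM on the right, and miR-7641 is its largest block in the UCA1-MS2 pulldown and a thin one in the control pulldown.

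A single name carried most of the difference in share. miR-7641 held 60.7% of the class counts in the UCA1-MS2 library and 3.27% in the control library. Without its counts, the class had 12.9% of all miRNA counts in the UCA1-MS2 library (12.4 to 13.3%) and 12.6% in the control library (12.3 to 12.8%), a ratio of 1.02 (0.98 to 1.07) whose interval holds 1. When miR-7641 was also taken out of the totals, the shares were 16.1% and 12.6%, a ratio of 1.27 (1.22 to 1.33). Taking out miR-4443 as well left 14.2% and 12.5%, a ratio of 1.13 (1.08 to 1.19). In RPM, the class without miR-7641 stood at 208.0 against 706.6, 3.40-fold lower. The size of the remaining difference, and in RPM its direction, thus depended on the total used.

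The class was uneven in both pulldowns, and different names led it. The 5 most counted members held 88.5% of the class in the UCA1-MS2 library and 83.6% in the control library. In the control library, miR-3135b alone made up 43.9% of the class and miR-4488 17.6%. In the UCA1-MS2 library miR-3135b made up 10.5%. Among all listed miRNAs, 6 members were in the 20 most counted of the UCA1-MS2 library and 5 in those of the control library. At the other end, 12 members had fewer than 25 counts in the pulldown where they were highest.

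**Figure D2:**
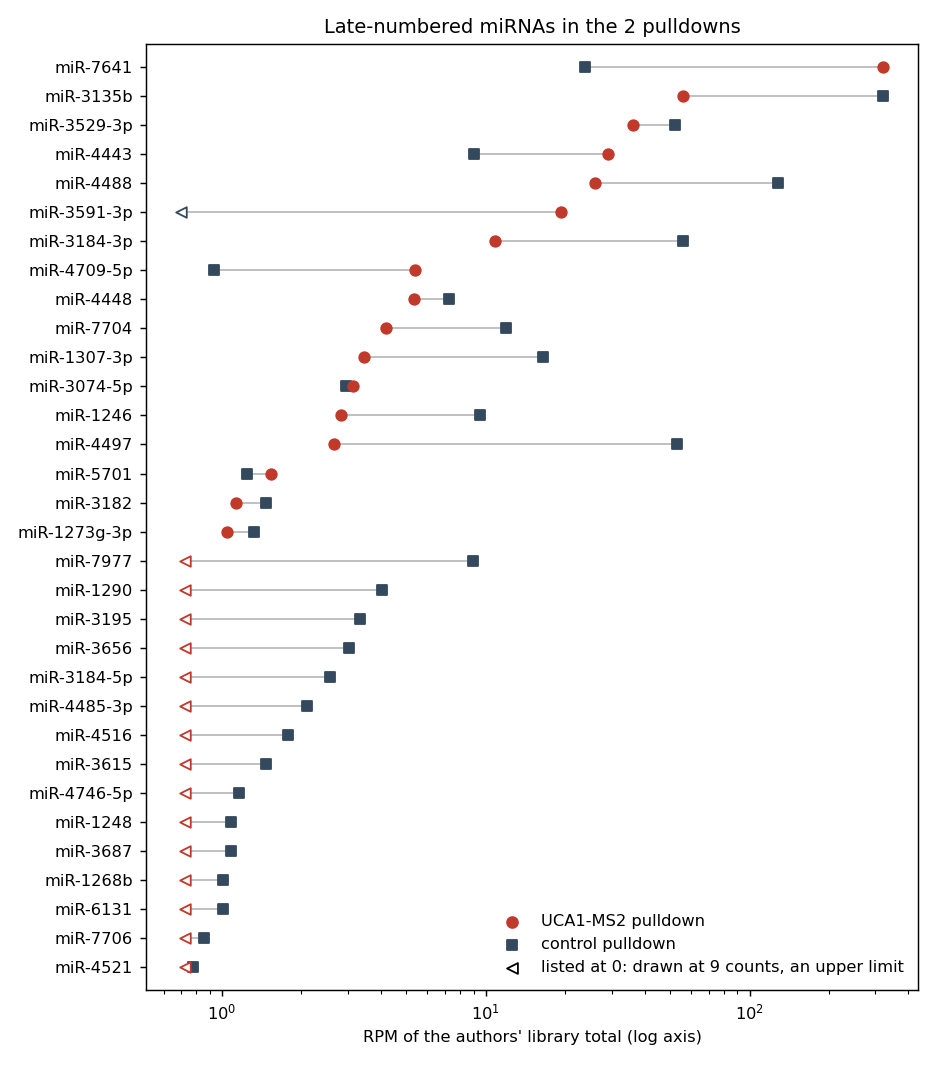
Level of each of the 32 late-numbered miRNAs in RPM of the authors' library total (log axis), circles for the UCA1-MS2 pulldown and squares for the control pulldown; an open triangle marks a listed 0, drawn at 9 counts as an upper limit. miR-7641 is the highest in the UCA1-MS2 pulldown and miR-3135b in the control pulldown, and 15 members have an open triangle for the UCA1-MS2 pulldown against 1 for the control pulldown.

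Single members were called higher or lower at a ratio of at least 2-fold, with a listed 0 set to 9 counts so that its ratio is a limit. By share of the miRNA counts, 10 members were higher (31.2%) against 27.8% of all 151 listed miRNAs, and 2 were lower (6.25%) against 12.6%. The first share was near that of all listed miRNAs, and the second rests on 2 members. In RPM, 4 members were higher (12.5%) against 7.28% of the listed miRNAs, and 15 were lower (46.9%) against 57%. The 4 called higher under both scalings were miR-7641, miR-4443, miR-3591-3p and miR-4709-5p. The 2 called lower under both were miR-4497 and miR-7977. Over the 16 members listed in both pulldowns, the median log2 ratio was 1.31 by share and -0.49 in RPM. This median leaves out the members listed in 1 library alone. Over all 32, with 0.5 counts added so that listed zeros enter, it was -1.62 by share. That setting places a listed 0 near 0 counts, though it can hide up to 9. At 9 counts, the limit of the share ratio was above 1 for 10 of the 15 members listed in the control library alone. The sign over all 32 thus depends on how a listed 0 is set. Over those listed in both with at least 50 counts in sum, the median log2 ratio by share was 0.29. For the 74 names below 1000 and let-7 listed in both, it was 0.31 and -1.49. Of the 16 members, the 95% counting interval of the ratio lay above 1 for 9 by share, below 1 for 4, and held 1 for 3. In RPM these numbers were 3, 8 and 5. The intervals were not counted over all 90 miRNAs listed in both pulldowns, so these numbers do not set the class apart from other miRNAs.

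**Figure D3:**
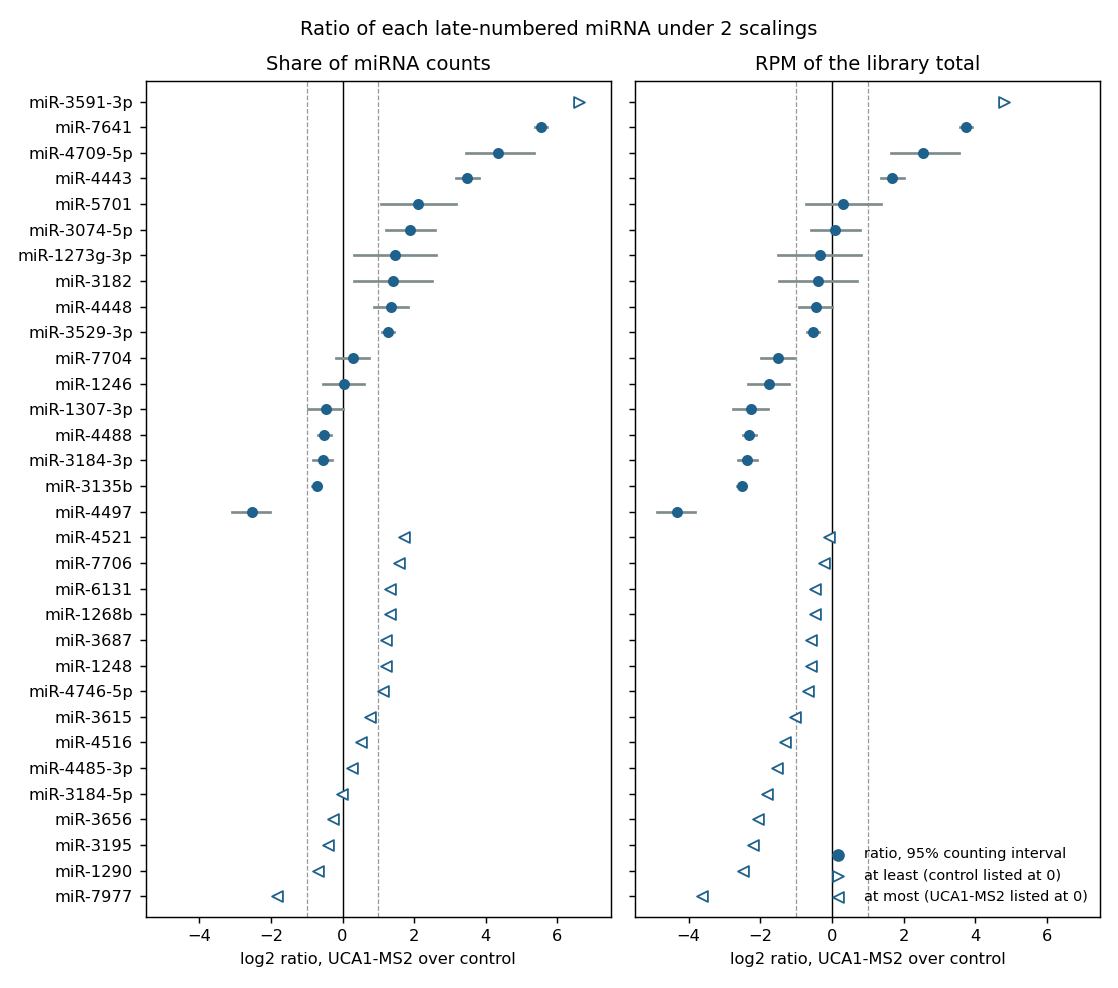
log2 ratio of the UCA1-MS2 over the control pulldown for each late-numbered miRNA, by share of the miRNA counts (left) and in RPM of the library total (right); points have 95% counting intervals, open triangles are limits for a listed 0, and dashed lines mark 2-fold. The same points are moved by -1.80 on the right, where miR-3591-3p, miR-7641, miR-4709-5p and miR-4443 remain past the upper line.

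The counts of miR-7641 were 3989 in the UCA1-MS2 library and 308 in the control library, or 322 and 23.9 RPM. It was the second most counted miRNA of the former, with 19.9% of the miRNA counts (19.4 to 20.5%), and ranked 27 in the latter with 0.424%. The ratio of shares was 46.9-fold, and that of RPM 13.5-fold. Its name has a pair of annotated genes (GENCODE release 29, GRCh38), and the counts are not divided between them. MIR7641-1 lies at chr11:104252591-104252651 and overlaps no other gene, while MIR7641-2 at chr14:75604209-75604261 lies in an intron of FLVCR2 and in RNA5SP387, a pseudogene of 5S ribosomal RNA.

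miR-4443 had 359 and 116 counts in the UCA1-MS2 and control libraries, 28.9 and 8.98 RPM. It ranked 12 in the former and 45 in the latter, with a log2 ratio of 3.49 by share (3.18 to 3.80) and 1.69 in RPM, which is 3.22-fold. Its sequence lies at chr3:48196572-48196588 on the plus strand and overlaps no other annotated gene. miR-4709-5p had far fewer, 67 and 12 counts or 5.40 and 0.929 RPM. Its log2 ratio was 4.34 by share (3.44 to 5.36) and 2.54 in RPM (1.64 to 3.56), so the size of this difference is known less well. It lies at chr14:74480175-74480196 in an exon of NPC2, on the same strand; NPC2 encodes a cholesterol-binding protein of the lysosome. miR-3591-3p had 240 counts (19.3 RPM) in the UCA1-MS2 library and was listed at 0 in the control library. It was at least 96.6-fold higher by share and at least 27.8-fold higher in RPM.

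For 6 further members, higher by share, the direction turned in RPM or was not resolved. miR-3529-3p had 450 and 676 counts in the UCA1-MS2 and control libraries, a share of 2.25% against 0.931%. This was 2.41-fold higher by share, while its level of 36.3 against 52.4 RPM was 1.44-fold lower. miR-4448, at chr3:183886860-183886879 in an intron of the pseudogene RPSAP31, had 66 and 94 counts. Its log2 ratio was 1.35 by share (0.87 to 1.82) and -0.45 in RPM (-0.93 to 0.02). miR-3074-5p had 39 and 38 counts, with log2 ratios of 1.89 (1.21 to 2.58) and 0.10 (-0.59 to 0.78). Its counts were near-equal in libraries of unequal miRNA totals. The last 3 were at the edge of detection, miR-5701 with 19 and 16 counts, miR-3182 with 14 and 19 and miR-1273g-3p with 13 and 17. Their log2 ratios by share were 2.10, 1.42 and 1.47, and the interval of each log2 ratio held 0 in RPM. miR-5701 has 3 annotated genes on chromosome 15, and its counts are not divided between them.

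The 3 most counted members of the control library, miR-3135b, miR-4488 and miR-3184-3p, were lower in the UCA1-MS2 library by both measures, by less than 2-fold in share. miR-3135b had 693 counts in the UCA1-MS2 library and 4141 in the control library, and ranked 5 in each. Its share was 3.46% against 5.71%, a log2 ratio of -0.72 (-0.84 to -0.61), and its level was 55.9 against 320.7 RPM, 5.74-fold lower. It lies at chr6:32749952-32749973 on the minus strand and overlaps no other annotated gene. miR-4488, at chr11:61508599-61508616, had 322 and 1657 counts, a log2 ratio of -0.51 by share (-0.68 to -0.33), and 25.96 against 128.3 RPM. With 135 and 720 counts, miR-3184-3p had a log2 ratio by share of -0.56 (-0.83 to -0.29), and 10.9 against 55.8 RPM. These 3 were close to each other in both ratios, 4.94-fold to 5.74-fold lower in RPM, beside 4.50-fold for the summed names below 1000 and let-7. Their decreases by share depend on the total used. miR-7641 held 19.9% of the miRNA counts in the UCA1-MS2 library and 0.424% in the control library, which lowers the other shares in the former. With totals of names below 1000 and let-7, every log2 ratio moves up by 0.37.

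miR-4497 stood apart among the members listed in both pulldowns. It had 33 counts in the UCA1-MS2 library and 687 in the control library, and its rank went from 17 in the control to 52. By share it was 5.75-fold lower, a log2 ratio of -2.52 (-3.07 to -2.02), and at 2.66 against 53.2 RPM it was 20.0-fold lower. Its sequence lies at chr12:109833350-109833366, opposite to an exon of TRPV4, the gene of a cation channel. miR-1307-3p had 43 and 213 counts and miR-7704 52 and 154. The intervals of their log2 ratios by share, -0.45 (-0.96 to 0.03) and 0.29 (-0.19 to 0.75), held 0. In RPM both were lower, by 2.25 and 1.51 on the log2 scale. Both lie in exons of protein-coding genes on the same strand, miR-1307-3p at chr10:103394301-103394322 in ATP5MD, which encodes a small protein of the ATP synthase, and miR-7704 at chr2:176188843-176188861 in the homeobox gene HOXD1.

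The 15 members listed in the control library alone had 10 to 115 counts there, a median of 19, and summed to 441 counts or 4.68% of the class. miR-7977 had 115 counts in the control library and 0 in the UCA1-MS2 library, at least 3.53-fold lower by share and at least 12.3-fold lower in RPM. miR-1290 had 52, miR-3195 43, miR-3656 39 and miR-3184-5p 33 counts, each with 0 in the UCA1-MS2 library. With miR-7977, these are the 5 for which a listed 0 was below the control share, and a control count of at least 33 was needed for that. For the other 10 a difference in share was not detectable at this depth. miR-4485-3p had 27 control counts, miR-4516 23 and miR-3615 19, each with 0 in the UCA1-MS2 library. In RPM, 8 of the 15 were at least 2-fold lower, those named so far. The remaining 7, miR-4746-5p, miR-1248, miR-3687, miR-1268b, miR-6131, miR-7706 and miR-4521, had 10 to 15 control counts.

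A search of the mature sequences found 5 members that pair nearly end to end with an older miRNA from the opposite strand of the same locus. Each member and its partner are printed with the paired bases in capitals, because a read of one strand is the reverse complement of the other. The use of strand in the counting is not given in the sources used here.
miR-3529-3p: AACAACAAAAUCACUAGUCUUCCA
miR-7-5p: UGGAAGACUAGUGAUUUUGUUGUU
miR-3184-3p: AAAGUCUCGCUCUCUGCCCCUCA
miR-423-5p: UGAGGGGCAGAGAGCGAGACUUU
miR-3184-5p: UGAGGGGCCUCAGACCGAGCUuuu
miR-423-3p: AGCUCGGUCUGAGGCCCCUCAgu
miR-3591-3p: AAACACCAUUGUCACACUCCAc
miR-122-5p: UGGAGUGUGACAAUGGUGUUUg
miR-3074-5p: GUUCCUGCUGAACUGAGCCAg
miR-24-3p: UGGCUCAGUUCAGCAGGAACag
The paired runs were 24, 23, 21, 21 and 20 bases in this order. The longest run of any other member with a name below 1000 was 10 bases. All 5 members lie on the minus strand. miR-3529-3p, at chr15:88611856-88611879, is opposite MIR7-2, and miR-3591-3p, at chr18:58451087-58451108, is opposite MIR122 and an exon of its host gene MIR122HG. Both arms of miR-3184, at chr17:30117095-30117117 for the 3p arm and chr17:30117128-30117151 for the 5p arm, are opposite MIR423 and an exon of NSRP1. miR-3074-5p, at chr9:95086063-95086083, is opposite MIR24-1 and an exon of C9orf3.

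In 4 of the 5 pairs, the names of both strands had counts in the same pulldown. miR-3591-3p had 240 counts against 488 for miR-122-5p, the main miRNA of hepatocytes, in the UCA1-MS2 library, or 0.492 per count of its partner, and both were listed at 0 in the control library. miR-3074-5p had 39 counts against 78 for miR-24-3p in the UCA1-MS2 library and 38 against 89 in the control library, 0.500 and 0.427 per count of the partner. For miR-3184-5p the values were 0 against 58 for miR-423-3p in the UCA1-MS2 library and 33 against 327 in the control library. These 3 members were listed only where their partner was listed too, with fewer counts. In the other 2 pairs the late name held nearly all counts. miR-3529-3p had 450 and 676 counts in the UCA1-MS2 and control libraries, while miR-7-5p, from an old and conserved family, had 0 and 33. miR-3184-3p had 135 and 720 counts and miR-423-5p was listed at 0 in both. Reads of a member and its partner cannot be told apart where strand was not used, so the values of these 5 members are uncertain.

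**Figure D4:**
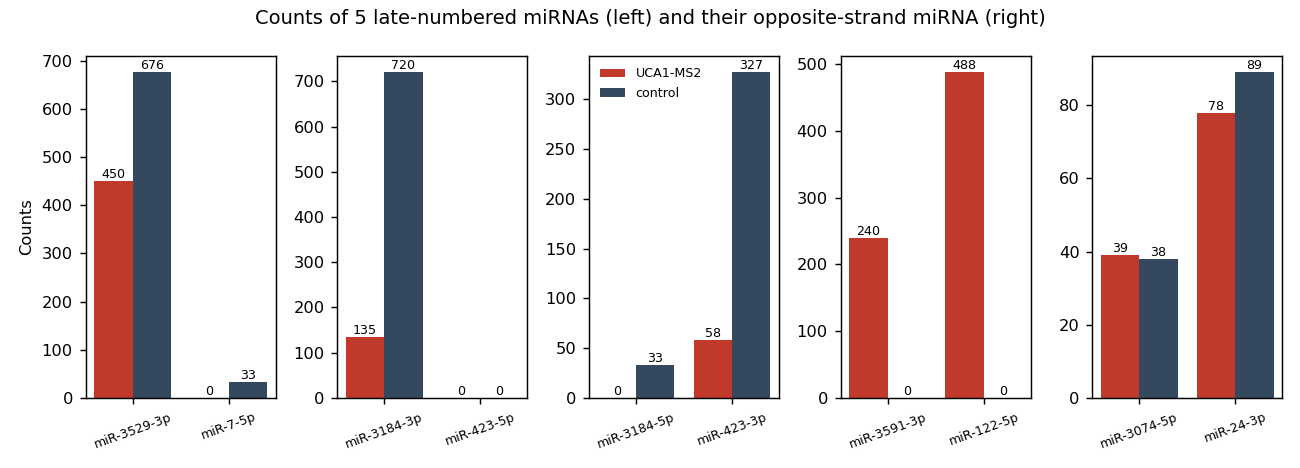
Counts (y axis) of 5 late-numbered miRNAs and of the older miRNA on the opposite strand, one panel per pair with its own axis from 0, in the UCA1-MS2 and the control pulldown; a 0 stands for up to 9 counts. miR-3529-3p and miR-3184-3p hold nearly all counts of their pairs, while miR-3184-5p, miR-3591-3p and miR-3074-5p have fewer counts than their partners.

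Together the 5 members held 864 counts in the UCA1-MS2 library, 13.2% of the class, and 1467 in the control library, 15.6%. Of the 5, 3 were called higher by share and 0 lower, and among the other 27 the numbers were 7 and 2, beside 27.8% higher and 12.6% lower of all 151 listed miRNAs. These are small counts and were not compared further. With the 5 taken out of both the class and the totals, the class had 29.8% and 11.2% of the remaining miRNA counts. The other 27 members held 86.8% and 84.4% of the class counts.

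A list of 23 names, written from general knowledge as having a sequence that lies in another non-coding RNA, was also followed. The sequence search described after it matched only some of the members on the list. Of the list, 8 were members, namely miR-7641, miR-1246, miR-7977, miR-1290, miR-3656, miR-4485-3p, miR-4516 and miR-3687. All 8 were listed in the control library and 2, miR-7641 and miR-1246, in the UCA1-MS2 library, beside 139 and 102 of all 151 listed miRNAs. By share 1 of the 8 was called higher and 1 lower, beside 27.8% and 12.6% of all 151 listed miRNAs. In RPM 1 was higher and 6 lower, beside 7.28% and 57%. Summed, the 8 had 4024 counts in the UCA1-MS2 library and 701 in the control library, 61.3% and 7.43% of the class. Without miR-7641 the sums were 35 and 393. miR-7641 was the 1 called higher. The other 7 had 0 to 35 counts in the UCA1-MS2 library, and for most of them a direction by share was not resolved.

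Of the 27 members with a sequence, 3 matched another small or ribosomal RNA of GENCODE release 29 over their whole length, against 0 of 108 listed names below 1000 and let-7. The 3 were miR-1246, miR-1248 and miR-4485-3p, and miR-1248 is not on the list of 23 names. From that list, miR-7977, miR-1290 and miR-4516 had no match in this search. miR-7641, miR-3656 and miR-3687 had no sequence to search. miR-1246 is found in U2 small nuclear RNA, which takes part in splicing, and had 35 and 123 counts in the UCA1-MS2 and control libraries. The interval of its log2 ratio by share, 0.04 (-0.54 to 0.60), held 0, and it was 3.38-fold lower in RPM. miR-1248 lies in the small nucleolar RNA SNORA81 in EIF4A2. The sequence of miR-4485-3p also occurs in the mitochondrial ribosomal RNA MT-RNR2, while its annotated place is an exon of MTRNR2L8 on chromosome 11. miR-1248 and miR-4485-3p had 14 and 27 counts, in the control library alone. miR-1246 and miR-1290 share a run of 12 bases, given in capitals.
miR-1246: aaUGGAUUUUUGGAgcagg
miR-1290: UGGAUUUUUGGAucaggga
The run starts at different bases, so the seeds of these miRNAs differ. By share, miR-1290 had a log2 ratio of at most -0.67, a limit that leaves out the counting error of its 52 control counts.

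The members differed from other miRNAs in length and base composition, features that the choice by number and count did not use. The 27 with a sequence had a median of 60% G and C (31.6 to 88.9%) and of 20 bases (17 to 27), and 11 of them (40.7%) were shorter than 20 bases. The 108 listed names below 1000 and let-7 had a median of 47.8% and 22 bases, and 0 were shorter than 20. Among 1430 late names not listed, the median was 55% and 22 bases, and 12.03% were shorter than 20. More than 70% G and C was found in 7 of the 27 members (25.9%), in 13.0% of the late names not listed and in 0.926% of the listed names below 1000 and let-7. The listed late names were thus shorter and richer in G and C than the late names that were not listed; no test was made.

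Among the members with a sequence, those called higher by share were poorer in G and C than the rest. miR-7641 and miR-1273g-3p, also called higher, have no sequence and are left out. The 8 members with a sequence that were higher by share had a median of 46.3% G and C (31.6 to 60%), and the 17 called neither higher nor lower 63.2%. Most of these 17 were listed at 0 in the UCA1-MS2 library and so could not be called higher. The 2 called lower, miR-4497 and miR-7977, had 82.4% and 61.1%. Across the 14 members with a sequence that were listed in both pulldowns, G and C content and the log2 ratio went in opposite directions, with a Spearman's rho of -0.59 and a Pearson's r of -0.61. Across 67 names below 1000 and let-7 the values were -0.31 and -0.31. These are descriptions across miRNAs of the same 2 libraries, which share one depth and one scaling, and the members are few. The 4 members above 70%, miR-4488, miR-7704, miR-4497 and miR-1307-3p, had log2 ratios from -2.52 to 0.29, 3 of them below 0. The log2 ratios in RPM are the same less a constant, so the order did not change with the scaling.

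**Figure D5:**
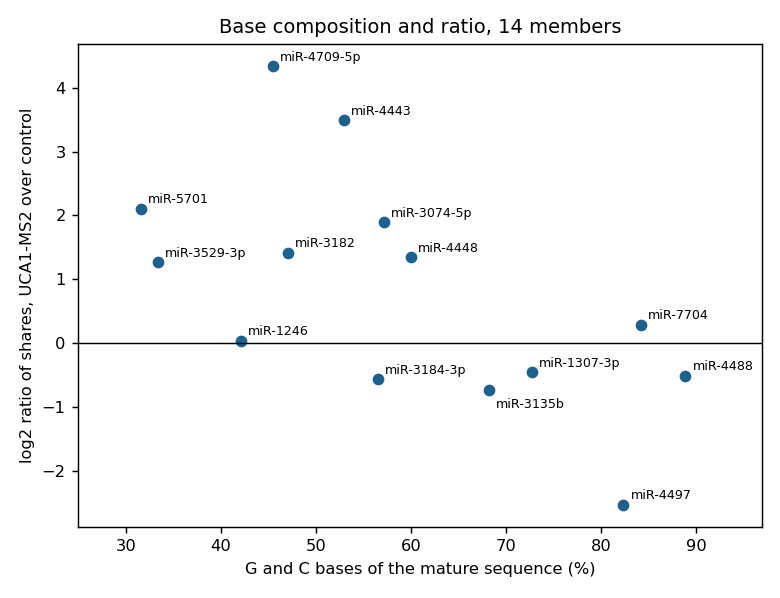
log2 ratio of shares (UCA1-MS2 over control pulldown, y axis) against the percentage of G and C in the mature sequence (x axis) for the 14 late-numbered miRNAs that were listed in both pulldowns and have a sequence; each point is 1 miRNA. miR-4709-5p and miR-4443, the highest points, lie at 45.5% and 52.9%, and miR-4497, the lowest, at 82.4%.

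All 32 members could be placed in the annotation, and 10 had a gene that overlaps no other gene. By position, 8 lie in an exon of a protein-coding gene on the same strand, 6 opposite to such an exon and 5 in an intron of such a gene on the same strand. Of the 8 exonic members, 1 was called higher by share, miR-4709-5p, 0 were called lower and 5 were listed in the control library alone. Of all 151 listed miRNAs, 27.8% were higher, 12.6% were lower and 49 were listed in the control library alone. The names of 10 members give an arm, and the opposite arm was listed for 2, which are the arms of miR-3184 itself. For the other 8, such as miR-4709-5p and miR-1307-3p, only 1 arm of the hairpin was seen at this depth.

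Values on either side of the boundaries of the choice were as follows. Around number 1000, miR-941 (29 counts in the UCA1-MS2 library and 218 in the control library), miR-769-5p (0 and 16) and miR-744-5p (14 and 69) fell just outside, and miR-1246 (35 and 123), miR-1248 (0 and 14) and miR-1268b (0 and 13) just inside. By count, miR-4521 with 10 and miR-7706 with 11 in the control library were just inside, and a name with 9 or fewer in both pulldowns was not listed. In the UCA1-MS2 library the lowest member count was 13.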

How the data were processed

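Small RNA from MS2 pulldowns of MDA231-UCA1-MS2 and MDA231-Con cells was sequenced, with 1 library per condition. The authors deposited a count per mature miRNA name and the same count as RPM, scaled to a library total that was recovered here from both. Of the tools, the submitters' processing notes name bcl2fastq and BWA; which miRNA release was used, and whether strand was, is not given in the sources used here. A deposited log2 fold change and p-value column of the authors' own comparison was not used, and 0 other columns were left out.

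Ratios of shares and of RPM had 95% intervals from the split of the counts (Clopper-Pearson, conditional on their sum; scipy 1.17.1), and shares had Wilson intervals, both for counting error only. A call needed 2-fold. Without replicates, the quasi-likelihood fit of edgeR was not possible; TMM (edgeR 4.0.16) and DESeq2 size factors (1.42.0) were used for scaling alone. The ratios were tried on simulated Poisson counts without any spread between pulldowns, so that trial says nothing about such spread. Members and lists were chosen with earlier results of these data known. Members were given in full by a rule: the 10 most counted in each pulldown, the 5 highest and 5 lowest ratios, and those of 1 pulldown with at least 20 counts. Alternatives were other library sizes, names left out, a boundary at 3000, 4-fold, 50 counts, 0.5 added counts and intervals past the fold. Sequences came from RefSeq and positions from GENCODE release 29.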

Additional observations from a re-analysis of the deposited data

How the results depend on the processing

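No paired analysis was possible because there was a single library of each pulldown, which also leaves no replicate to omit. The late-numbered share was 32.8% (UCA1-MS2) and 13.0% (control). It was 16.1% and 12.6% without miR-7641, 14.2% and 12.5% without miR-7641 and miR-4443, 29.8% and 11.2% without the opposite-strand members, and 12.4% in the control pulldown with the boundary at 3000. In these shares, names left out were also taken out of the totals. The log2 class ratio of 1.34 became -0.46 with the authors' library totals, 1.16 with TMM, 0.95 with DESeq2 size factors, 0.98 with totals less miR-21-5p and miR-100-5p, 1.71 with totals of names below 1000 and let-7, 0.35 without miR-7641, 0.18 without miR-4443 as well, 1.38 with the boundary at 3000, 1.41 without the opposite-strand members and -1.76 without miR-7641 on the authors' totals. Shares of all 151 listed miRNAs with the same call are in brackets. The 10 members called higher (27.8%) became 4 with the authors' totals (7.28%) and 5 at 4-fold (15.2%). The 2 called lower (12.6%) became 15 with the authors' totals (57.0%) and 16 with 0.5 counts added (44.4%). They became 4 with DESeq2 size factors (21.2%) and 4 with miRNA totals less miR-21-5p and miR-100-5p (20.5%). At 4-fold 1 was lower (3.31%), and with the interval past the fold 1 (7.28%). With that interval on the authors' totals, 4 were higher and 10 lower, and all listed miRNAs were not counted in this way. The median log2 ratio of 1.31 became -0.49 with the authors' totals, -1.62 with 0.5 counts added, where listed zeros enter, and 0.29 with at least 50 counts. The settings on the authors' totals without miR-7641 or with the interval were chosen after seeing the data. Scalings moved all log2 ratios alike, by -0.18 to -1.80, or by 0.37 with the totals of names below 1000; other causes were not tested. Depth limits the listed zeros: below 33 control counts, a 0 in the UCA1-MS2 pulldown allows a share as high as the control's.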
